A study of Mus musculus with 6 samples.

Results

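A group of 9 genes of the bone morphogenetic protein (BMP) pathway was followed by their raw UMI counts through the mouse embryo from blastocyst to egg cylinder: the ligand genes Bmp2 and Bmp4, the type I receptor gene Bmpr1a, the target genes Id1, Id2 and Id3, and the feedback inhibitor genes Smad6, Smad7 and Bambi. They were chosen by name as source and response of one pathway, and all 9 of 9 were found among the 32285 genes of the count matrices. The data were single-cell RNA libraries of whole embryos, 1 library for each of 6 stages between E3.5 and E5.5, from crosses of female B6SJLF1/J to male B6CBAF1/J mice with no other allele or treatment named. Mothers of the 2 earliest stages (E3.5, E4.5) were 4 weeks old and hormonally superovulated, and their embryos were flushed out of the uterine horns. Mothers of the 4 later stages were 7 weeks old and mated with no hormone injection named, and embryos were cut out of the uterus. The libraries of E3.5, E4.5 and E5.5 passed a 20 µm filter and the other 3 were left unfiltered, per the labels.

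BMP ligands are secreted dimers that bind pairs of type I and type II receptors, which phosphorylate SMAD1, SMAD5 and SMAD9. These enter the nucleus with SMAD4 and switch on genes that include the ID genes, whose products block helix-loop-helix transcription factors, and the inhibitors SMAD6, SMAD7 and BAMBI, which act back on the receptors. In the mouse egg cylinder, BMP4 from the extraembryonic ectoderm and BMP2 from the visceral endoderm are known as signals to the epiblast and the surrounding endoderm.

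The 6 libraries held 152 to 27302 barcodes and 1788882 to 112702098 UMIs, and any pair of them shared 0 to 47 barcodes. After filtering, 20817 cells were clustered without the 9 genes, and clusters were classed from marker genes as epiblast-like, primitive and visceral endoderm-like (below, endoderm), parietal endoderm-like, trophoblast-like and giant cell-like. A cluster of 68 cells was classed as uterine epithelium-like (1, 35, 14 and 18 cells from E4.5 to E5.25) and enters no comparison below. Epiblast-like cells numbered 44, 299, 841, 1913, 1251 and 2419 over the 6 stages, and trophoblast-like cells 42, 232, 444, 795, 892 and 1794. Endoderm cells numbered 420, 735, 1726, 1175 and 1134 from E4.5, parietal endoderm-like cells 360, 502, 264 and 372 from E4.75, and giant cell-like cells 134, 193 and 276 from E5.0. At E5.5, 68.1% of barcodes had under 1500 detected genes, and 2107 of 8102 filtered cells were left out of the classes because their clusters or sub-clusters could not be named or carried the markers of another lineage. Several clusters came almost wholly from 1 library. Cluster 3 (epiblast-like) held 297 cells, all of E4.5, and 419 of the 421 cells of cluster 2 (endoderm) were of E4.5. From E4.75 came 743 of 762 cells of cluster 6 (epiblast-like), 679 of 731 of cluster 12 (endoderm) and 397 of 424 of cluster 7 (trophoblast-like), and from E5.5 2256 of 2411 cells of cluster 20 (epiblast-like) and 1157 of 1176 of cluster 18 (trophoblast-like). Levels are UMIs of a gene per 1000000 UMIs of all cells of a class in a library (CPM), with exact Poisson 95% intervals that cover counting error only. Stages had no replicate library, so no test was possible and stage, mother's age, collection and filter cannot be told apart. A member was counted as higher or lower where its CPM differed at least 2-fold and the higher value was at least 10 CPM.

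Bmp2 (chromosome 2, 133552159 to 133562885, GRCm38) was found mostly in the endoderm classes from E4.5 on. In endoderm it was at 3.26, 3.67, 19.9, 30.7 and 46.4 CPM from E4.5 to E5.5. In parietal endoderm-like cells it was at 9.15, 21.4, 29.3 and 39.5 CPM from E4.75. Trophoblast-like cells held at most 1.79 CPM, giant cell-like cells at most 1.14 CPM and epiblast-like cells at most 0.199 CPM at any stage. Bmp2 thus increased with stage in both endoderm classes and stayed near 0 elsewhere, and at E5.25 it was 154-fold higher in endoderm than in epiblast-like cells (interval 70.4 to 422). At E5.5 endoderm held 74.6% and parietal endoderm-like cells 19.9% of the 342 Bmp2 UMIs of the 5 classes, with 18.9% and 6.21% of their cells. When each cell was thinned to 3000 UMIs, 10.5% of endoderm cells at E5.5 held a Bmp2 UMI, against 0.0883% of epiblast-like cells. The unthinned shares were 16.2% of endoderm cells, at a median of 4295 UMIs, and 0.124% of epiblast-like cells, at a median of 6131 UMIs.

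Bmp4 (chromosome 14, 46383520 to 46390669) was found in a different place at E3.5 than at all later stages. In epiblast-like cells of E3.5, it was at 126 CPM (interval 103 to 153), with a UMI in 70.5% of 44 cells (27.3% after thinning to 3000 UMIs) at a median of 17346 UMIs. The 42 trophoblast-like cells of the same library held 0 Bmp4 UMIs at a median of 18701 UMIs, at least 34.9-fold lower with 3 counts of the class sum as the floor. For the share of cells with a UMI, 3 of 42 cells (7.14%) was taken as the floor, which is not an exact interval. From E4.5 the places were the other way round. Trophoblast-like cells were at 142, 111, 110, 90.4 and 80.1 CPM from E4.5 to E5.5, and epiblast-like cells at 22.3, 5.91, 4.63, 5.28 and 6.96 CPM. The E4.5 over E3.5 change was at least 39.4-fold upward in trophoblast-like cells and 5.65-fold downward in epiblast-like cells (interval 4.16 to 7.71). Endoderm markers differed with it in epiblast-like cells: the 10 parietal endoderm markers summed to 229 CPM at E4.5 and 1493 CPM at E3.5, and the 12 primitive and visceral endoderm markers to 501 and 1061 CPM, and their part in the Bmp4 change was not tested. Only 2 cells of E3.5 were classed as endoderm, so the epiblast-like class of that stage may include endoderm precursors, here and below. Over all members at E4.5 over E3.5, epiblast-like cells had Id1, Id2 and Smad7 higher (3 of 7, beside 16.4% of all genes) and Bmp4 and Id3 lower (2 of 7, beside 18.2%). Trophoblast-like cells had Bmp4 and Smad6 higher (2 of 7, beside 14.6%) and Id3 and Bambi lower (2 of 7, beside 15.0%). Trophoblast-like cells held 74.0% of the Bmp4 UMIs of the 5 classes at E4.5 and 85.8% at E5.5. Endoderm stayed at 9.82 to 20.1 CPM, parietal endoderm-like cells at 0.61 to 4.65 CPM and giant cell-like cells at 2.52 to 6.29 CPM. After thinning, 18.8% of trophoblast-like cells at E5.5 held a Bmp4 UMI, against 1.9% of epiblast-like cells. The unthinned shares were 32.9% at a median of 6324 UMIs in trophoblast-like cells and 4.46% at 6131 UMIs in epiblast-like cells.

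**Figure D1:**
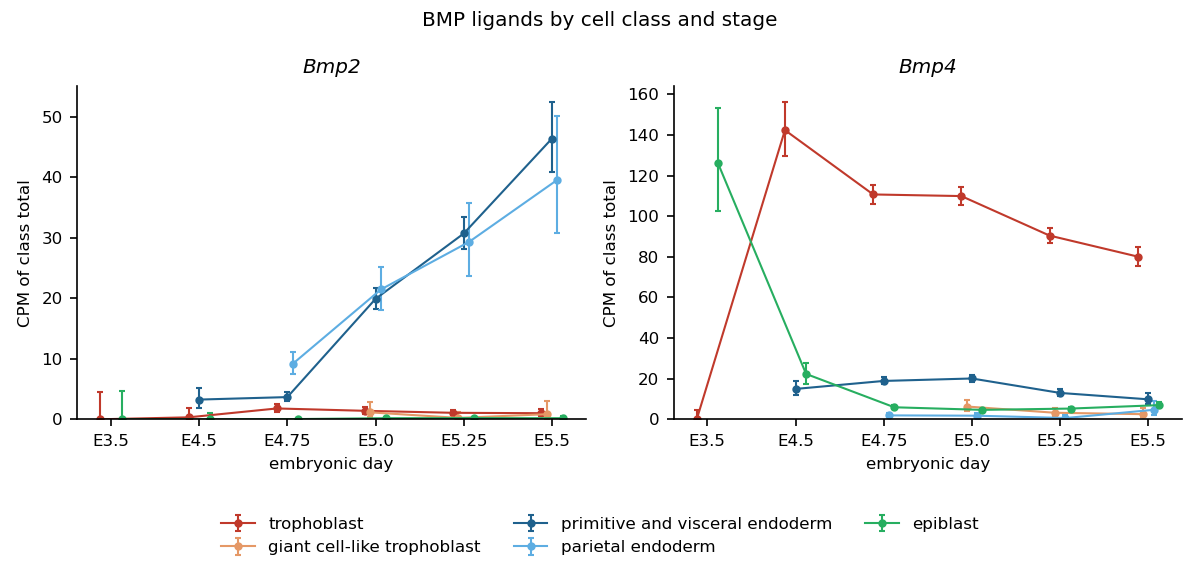
CPM of Bmp2 (left) and Bmp4 (right) by stage, 1 line per cell class, with exact Poisson 95% intervals as bars. Bmp2 reached 46.4 CPM in endoderm and 39.5 CPM in parietal endoderm-like cells at E5.5, while Bmp4 was at 126 CPM in epiblast-like cells of E3.5 and at 80.1 to 142 CPM in trophoblast-like cells from E4.5.

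Within the trophoblast from E5.0 on, Bmp4 was highest in cells with markers of the extraembryonic ectoderm, the tissue that borders the epiblast. In these sub-clusters Bmp4 was at 141.5, 137.5 and 156 CPM at E5.0, E5.25 and E5.5. The ectoplacental cone-like sub-cluster of E5.5 had 7.14 CPM (interval 4.66 to 10.5), against 156 CPM in the extraembryonic ectoderm-like cells of that library (interval 146 to 166). Id2 was split the same way at E5.5, with 159 CPM in ectoplacental cone-like cells and 999 CPM in extraembryonic ectoderm-like cells, and so was Smad6, with 7.41 and 55.2 CPM. Smad7 was nearer to even, with 233 and 287 CPM. Id2 did not follow Bmp4 everywhere. An unnamed sub-cluster of 524 cells led by Fgfbp1, Phlda2 and Apoe had 42.0 CPM of Bmp4 at E5.5 (36.1 to 48.7) with 1058 CPM of Id2. Another of 260 cells led by Pcsk1n and Gata1 had 27.9 CPM of Bmp4 at E5.25 with 1042 CPM of Id2. Trophoblast cells also differed in Bmp4 at E4.5. A sub-cluster of 170 cells, unnamed by its markers, had 170 CPM of Bmp4, and 56 early trophectoderm-like cells had 11.1 CPM (interval 4.09 to 24.2). Giant cell-like cells were lower than trophoblast-like cells in Bmp4, Id2, Id3, Smad6 and Bambi at E5.0 and E5.25 (5 of 8 measured members at each stage, beside 7.68% and 8.28% of all genes), and in all of these but Id3 at E5.5 (4 of 7, beside 8.26%).

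Bmpr1a (chromosome 14, 34410734 to 34503341), a type I receptor for BMP2 and BMP4, varied less than the other members. It was at 78.2 to 110 CPM in epiblast-like cells, 88.9 to 152 CPM in endoderm, 109 to 144 CPM in parietal endoderm-like cells, 57.4 to 98.8 CPM in trophoblast-like cells and 54.6 to 71.9 CPM in giant cell-like cells. The order at E5.25 was endoderm (152), parietal endoderm-like (126), epiblast-like (110), trophoblast-like (81.9) and giant cell-like (71.9). The counting intervals of the last pair overlapped (78.4 to 85.4 and 64.1 to 80.3 CPM), and those of the others did not. Bmpr1a was within 2-fold in all 6 contrasts of E5.5 over E4.5 and E5.25 over E4.75 in epiblast-like, endoderm and trophoblast-like cells.

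The promoters of Id2, Id3 and Smad6 are shown because these transcripts increased together in endoderm from E4.75 to E5.25, and SMAD proteins are known to bind GC-rich boxes and the box GTCT. They are the 250 bases before the annotated start, from RefSeq (GRCm38.p6), 5′ to 3′ in the direction of transcription. The GENCODE gene extents given with the levels reach further upstream for Id2 and Id3, so these windows lie inside those extents, while both annotations place the Smad6 start at the same base. Matches to GGCGCC, which reads the same on both strands, and to GTCT or its reverse AGAC are in capitals. They lie at chr12:25096093-25096342 (minus strand) for Id2, chr4:136143572-136143821 (plus strand) for Id3 and chr9:64022060-64022309 (minus strand) for Smad6.
Id2: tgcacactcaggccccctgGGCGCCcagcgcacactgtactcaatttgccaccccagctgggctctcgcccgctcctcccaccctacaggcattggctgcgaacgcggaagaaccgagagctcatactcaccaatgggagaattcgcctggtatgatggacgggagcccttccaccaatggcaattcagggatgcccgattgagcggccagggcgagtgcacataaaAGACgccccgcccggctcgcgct
Id3: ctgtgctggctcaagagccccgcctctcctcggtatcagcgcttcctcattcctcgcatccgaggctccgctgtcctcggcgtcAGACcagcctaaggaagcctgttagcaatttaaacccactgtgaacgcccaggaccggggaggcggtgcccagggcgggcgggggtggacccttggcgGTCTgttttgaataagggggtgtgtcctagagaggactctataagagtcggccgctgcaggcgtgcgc
Smad6: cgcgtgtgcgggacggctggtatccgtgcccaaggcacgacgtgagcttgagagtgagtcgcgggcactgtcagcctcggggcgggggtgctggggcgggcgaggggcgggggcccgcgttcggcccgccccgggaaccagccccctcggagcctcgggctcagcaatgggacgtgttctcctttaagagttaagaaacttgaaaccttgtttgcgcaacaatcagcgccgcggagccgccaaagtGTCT
The Id2 window held 1 match to GGCGCC, 231 bases before the start, and 1 to GTCT. The Id3 window held 2 matches to GTCT and the Smad6 window 1, with none to GGCGCC in either. No matches overlapped. Of 32851 promoters of this length, 9.59% held GGCGCC and 82.9% held GTCT on either strand, so a match to GTCT is common.

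The ID genes were split by lineage: Id2 was highest in trophoblast-like cells, Id3 in epiblast-like cells and Id1 in endoderm at E4.5 and from E5.0 and in parietal endoderm-like cells at E4.75. Id2 (chromosome 12, 25093799 to 25097140) was at 800, 611, 905, 821, 907 and 792 CPM in trophoblast-like cells over the 6 stages. The endoderm level was 96.5, 102, 164, 239 and 278 CPM from E4.5. Parietal endoderm-like cells had 127, 195, 247 and 304 CPM from E4.75 and giant cell-like cells 83.9 to 150 CPM. Epiblast-like cells were lowest, at 2.52, 18.3, 68.1, 40.9, 44.3 and 69.0 CPM. The 42 trophoblast-like cells of E3.5 with 800 CPM of Id2 (interval 741 to 864) held no UMI of Bmp4, Bmp2 or Id1. At E4.75 an unnamed trophoblast sub-cluster of 183 cells led by Shroom3, Wdr72 and Chac1 reached 1418 CPM of Id2 with 137 CPM of Bmp4. Another of 207 cells led by Il24 and Pecam1 had 491 CPM of Id2 with 96.3 CPM of Bmp4.

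Id3 (chromosome 4, 136143497 to 136145755) was at 164, 53.3, 98.0, 177, 195 and 300 CPM in epiblast-like cells over the 6 stages. The endoderm level was 40.0, 63.4, 122, 173 and 237 CPM from E4.5. Parietal endoderm-like cells had 38.5, 34.1, 21.7 and 71.5 CPM from E4.75. Trophoblast-like cells stayed at 9.84 to 25.3 CPM, and giant cell-like cells at 2.30 to 7.97 CPM. In the class with most Id2, Id3 was thus low: at E5.5 it was 30.5-fold lower in trophoblast-like than in epiblast-like cells (interval 25.7 to 36.4), while Id2 was 11.5-fold higher (10.8 to 12.2).

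Id1 (chromosome 2, 152736251 to 152737410) was at 111, 224, 244, 278 and 375 CPM in endoderm from E4.5 to E5.5. Epiblast-like cells were at 7.57, 31.9, 168, 110, 101 and 132 CPM from E3.5, with a peak at E4.75. Trophoblast-like cells were at 0, 7.41, 28.3, 25.7, 22.2 and 51.4 CPM and giant cell-like cells at 29.4 to 33.6 CPM. In parietal endoderm-like cells Id1 took another course, at 260, 197, 89.4 and 172 CPM from E4.75. In single epiblast-like cells of E5.5 thinned to 3000 UMIs, Id3 was found in 69.9% of the 498 cells with Id1 and in 46.0% of the rest, and Id2 in 34.3% of cells with Id1 and in 12.4% of the rest. The class includes a sub-cluster of 310 cells with trophoblast markers at 670 CPM and primitive and visceral endoderm markers at 682 CPM. Its part in these shares was not tested.

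**Figure D2:**
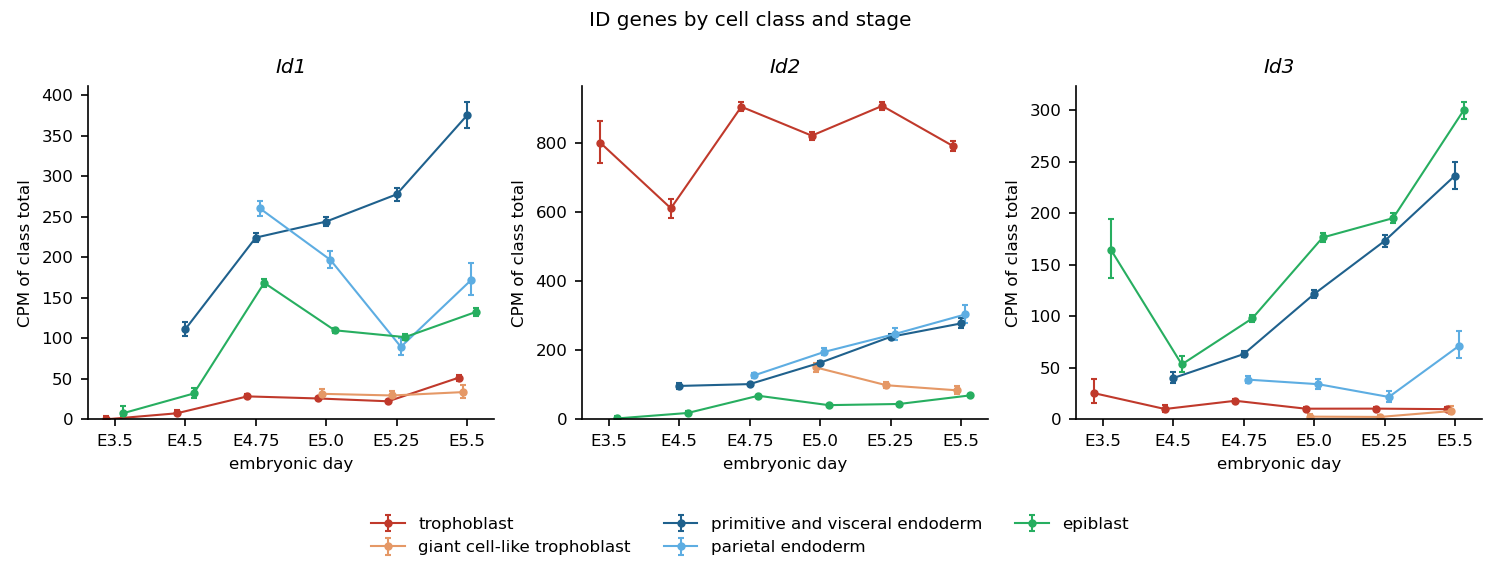
CPM of Id1, Id2 and Id3 (left to right) by stage, 1 line per cell class, with exact Poisson 95% intervals as bars. Id1 was highest in endoderm from E5.0 (244 to 375 CPM), Id2 in trophoblast-like cells at every stage (611 to 907 CPM) and Id3 in epiblast-like cells at every stage (53.3 to 300 CPM).

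Immediate early genes, which cells switch on within minutes of handling, are given beside the ID genes. Id1 and Id3 are also known to respond to serum, and the dissociation was stopped with serum. The sum of immediate early genes (21 of 22 listed genes matched) was 231, 247, 441, 364, 326 and 435 CPM in epiblast-like cells from E3.5 to E5.5. It was 288, 443, 474, 582 and 757 CPM in endoderm and 617, 1152, 1552 and 1697 CPM in parietal endoderm-like cells. In trophoblast-like cells it was 530, 638, 1469, 1165, 1231 and 1512 CPM. In epiblast-like cells, endoderm and trophoblast-like cells the sum was lowest at the stage where Id1 was lowest, and highest where Id1 was highest. In parietal endoderm-like cells it was highest at E5.5, while Id1 there was highest at E4.75. The sum also differed between the trophoblast sub-clusters set side by side for Id2. At E5.5 it was 2959 CPM in ectoplacental cone-like cells and 775 CPM in the main extraembryonic ectoderm-like sub-cluster (739 cells). At E4.75 it was 688 CPM in the sub-cluster led by Shroom3 and 2010 CPM in the one led by Il24. The sub-clusters led by Fgfbp1 (E5.5) and Pcsk1n (E5.25) had 1253 and 1561 CPM. The part of these sums and of serum in the ID levels was not tested.

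The intracellular inhibitors Smad6 and Smad7 were highest in trophoblast-like cells for most stages, and Bambi, a decoy receptor, in endoderm from E5.0. Smad6 (chromosome 9, 63953076 to 64022059) was at 9.64, 22.2, 47.1, 47.3, 52.2 and 35.3 CPM in trophoblast-like cells over the 6 stages. The endoderm level was 7.85, 18, 32.3, 53.7 and 59.1 CPM from E4.5, and the epiblast-like level 0, 6.38, 11.8, 9.91, 11.1 and 11.3 CPM from E3.5. Parietal endoderm-like cells had 8.24 to 13.4 CPM and giant cell-like cells 8.29 to 12.6 CPM. Endoderm thus reached the trophoblast level at E5.25, where the intervals overlapped (50.3 to 57.2 and 49.4 to 55.0 CPM). Smad7 was at 123, 193, 334, 219, 244 and 264 CPM in trophoblast-like cells, and at 21.4, 107, 136, 93.1, 97.8 and 86.7 CPM in epiblast-like cells. Giant cell-like cells had 127 to 204 CPM of Smad7, endoderm 55.7 to 93.5 CPM and parietal endoderm-like cells 38.5 to 68.9 CPM. Bambi was at 5.94, 19.0, 39.7, 31.3 and 48.6 CPM in endoderm from E4.5, at 3.54 to 22.4 CPM in trophoblast-like cells, and at 7.57 to 20.2 CPM in epiblast-like cells. Parietal endoderm-like cells had 5.84 to 12.8 CPM of Bambi and giant cell-like cells 5.97 to 7.55 CPM.

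**Figure D3:**
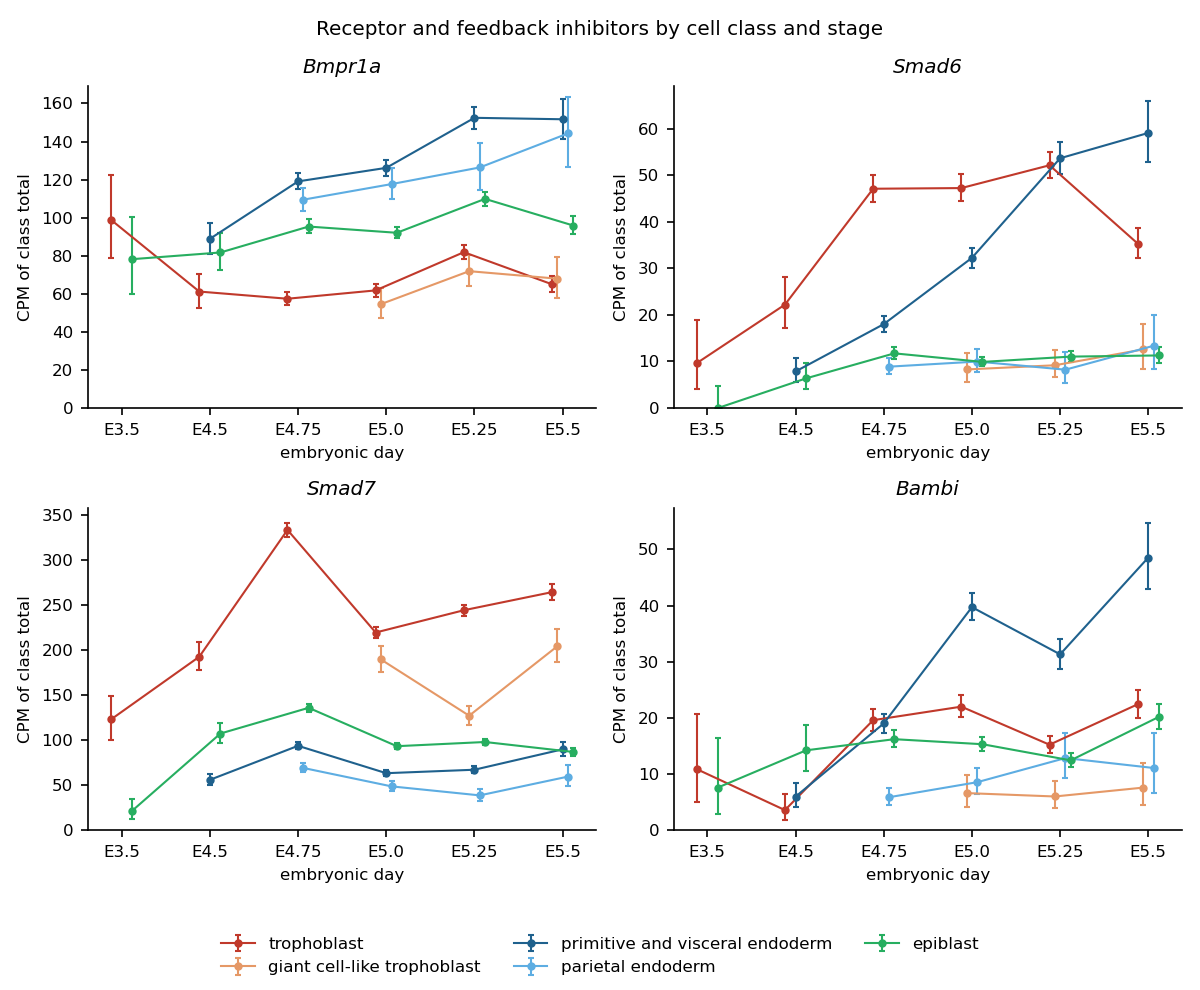
CPM of Bmpr1a, Smad6, Smad7 and Bambi by stage, 1 line per cell class, with exact Poisson 95% intervals as bars. Smad7 was highest in trophoblast-like cells at every stage (123 to 334 CPM), Smad6 increased in endoderm to 59.1 CPM at E5.5, and Bmpr1a stayed between 54.6 and 152 CPM in all classes.

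Between lineages of the same library, trophoblast-like cells were higher than epiblast-like cells in Bmp4, Id2, Smad6 and Smad7 at each stage from E4.75 to E5.5 (4 of 8 measured members each time, beside 15.8%, 13.0%, 12.6% and 12.3% of all genes). They were lower in Id1 and Id3 at each of these stages (2 of 8, beside 20.5%, 16.8%, 15.9% and 16.1% of all genes). At E5.25 Bmp4 was 17.1-fold higher in trophoblast-like cells (interval 14.6 to 20.3) and Id2 20.5-fold (19.4 to 21.6). At E4.5 the higher members were Bmp4, Id2 and Smad6 (3 of 8, beside 15.9%) and the lower ones Id1, Id3 and Bambi (3 of 8, beside 21.6%). At E3.5 Id2 and Smad7 were higher (2 of 6, beside 14.4%), and Bmp4 and Id3 lower (2 of 6, beside 22.5%), with Id2 resting on 2 UMIs in epiblast-like cells (317-fold, interval 87.5 to 2625). Endoderm was higher than epiblast-like cells in Bmp2, Bmp4, Id1, Id2, Smad6 and Bambi at E5.0 and E5.25 (6 of 9, beside 29.5% and 30.4% of all genes). At E5.5 it was higher in the same members but Bmp4 (5 of 8, beside 28.3%). At E4.75 Bmp4 was the one such member (1 of 8, beside 28.2%), and at E4.5 Id1 and Id2 were higher (2 of 7, beside 20.8%) and Bambi lower (1 of 7, beside 15.5%). Id3 differed from the other ID genes here, since endoderm had 237 CPM and epiblast-like cells 300 CPM at E5.5.

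Across stages, the members increased most widely in endoderm. At E5.5 over E4.5, Bmp2, Id1, Id2, Id3, Smad6 and Bambi were at least 2-fold higher in endoderm (6 of 9 members, beside 17.2% of all genes), and 0 were lower (beside 12.4%). The folds were 14.2 for Bmp2 (interval 8.72 to 24.8), 8.18 for Bambi (5.63 to 12.3), 7.53 for Smad6 (5.43 to 10.7) and 5.92 for Id3 (5.11 to 6.88). The median log2 ratio was 1.67 over the 9 members and 0.18 over all genes measured. The make-up of the endoderm class also shifted. At E4.5, E4.75, E5.25 and E5.5 its 10 parietal endoderm markers summed to 7583, 5219, 3465 and 2669 CPM. Its 12 primitive and visceral endoderm markers summed to 9026, 11664, 11436 and 10920 CPM. A separate parietal class was summed only from E4.75. The part of this shift in the endoderm increases, here and below, was not tested. In epiblast-like cells Id1, Id2 and Id3 were higher (3 of 8, beside 13.0%) and Bmp4 was lower (1 of 8, beside 18%). In trophoblast-like cells Id1 and Bambi were higher (2 of 7, beside 11.1%) and 0 members were lower (beside 14.7%).

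When E4.75 served as the earlier stage instead, a comparison added after seeing the data, 5 of 9 members were higher in endoderm (Id1 was not, beside 5.35% of all genes), 1 of 7 in epiblast-like cells (Id3, beside 4.78%) and 0 of 8 in trophoblast-like cells (beside 3.46%). Lower members numbered 0 in endoderm (beside 4.41%), 0 in epiblast-like cells (beside 8.13%) and 0 in trophoblast-like cells (beside 5.69%). Id1 in epiblast-like cells then changed direction, with 132 CPM at E5.5 and 168 CPM at E4.75, and so did Bmp4, with 6.96 and 5.91 CPM.

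Between the unfiltered, dissected libraries of E5.25 and E4.75, endoderm had 4 of 9 members higher (Bmp2, Id2, Id3 and Smad6, beside 3.71% of all genes) and 0 lower (beside 2.59%). Bmp2 was 8.37-fold higher (interval 6.72 to 10.5), Smad6 2.98-fold (2.66 to 3.33), Id3 2.73-fold (2.57 to 2.90) and Id2 2.34-fold (2.23 to 2.46). Epiblast-like cells had 0 of 7 members higher (beside 2.3%) and 0 lower (beside 7.55%), and trophoblast-like cells 0 of 8 higher (beside 3.46%) and 0 lower (beside 7.12%). In parietal endoderm-like cells Bmp2 and Bambi were higher (2 of 7, beside 4.85%) and Id1 was lower (1 of 7, beside 4.51%), by 2.91-fold (2.58 to 3.29). At E5.5 over E5.25, Id1 was higher in trophoblast-like cells (1 of 8, beside 0.63%), with 51.4 and 22.2 CPM, and Id3 in parietal endoderm-like cells (1 of 8, beside 1.7%), with 71.5 and 21.7 CPM.

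**Figure D4:**
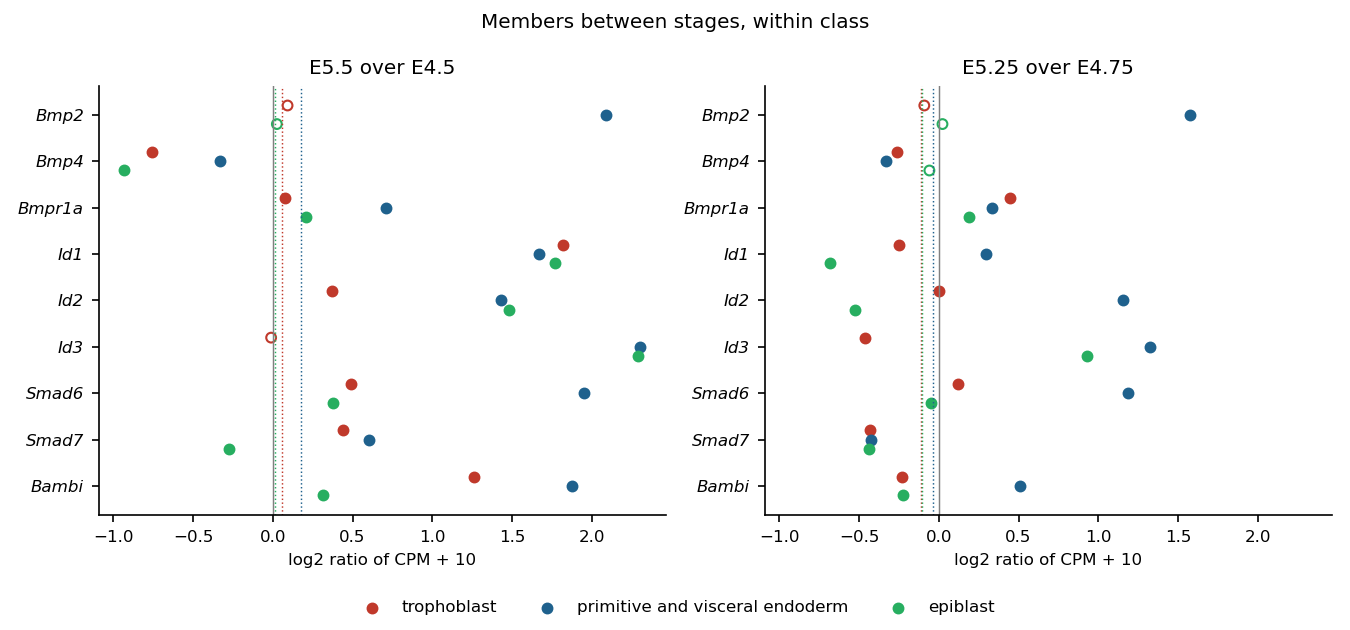
Log2 ratio of CPM plus 10 of each member at E5.5 over E4.5 (left) and at E5.25 over E4.75 (right), with 1 dot per cell class. Open dots are members under 10 CPM in both sums, and dotted lines are the medians of all genes measured in each class. In endoderm 6 of 9 members were at least 2-fold higher at E5.5 than at E4.5, and 4 of 9 at E5.25 than at E4.75.

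Inside the endoderm at E5.25, the cells with most Bmp2 had least Id1, Id2, Id3 and Smad6. The anterior visceral endoderm-like sub-cluster (145 cells, led by Cd24a, Lefty1 and Sfrp1) had 65.9 CPM of Bmp2 (interval 56.3 to 76.7), with 108 CPM of Id1, 44.0 of Id2, 87.1 of Id3 and 9.03 of Smad6. The embryonic visceral endoderm-like sub-cluster (178 cells, led by Efna5, Mecom and Grb10) had 74.9 CPM of Bmp2, with 126 CPM of Id1, 61.1 of Id2, 82.7 of Id3 and 25.0 of Smad6. Another sub-cluster (162 cells, led by Fabp1, Ptgds and S100a1 and not named by its markers) had 12.2 CPM of Bmp2 (8.52 to 16.8), with 465 CPM of Id1, 368 of Id2, 266 of Id3 and 65.2 of Smad6. Sub-clusters led by Fst (89 cells) and by Lyz2 (330 cells) were nearer to this one, with 3.08 and 11.9 CPM of Bmp2, 436 and 298 CPM of Id1, and 64.7 and 89.4 CPM of Smad6. Bambi did not follow the other inhibitor, since it was at 42.8 and 39.6 CPM in the anterior and embryonic visceral endoderm-like cells, against 22.6 CPM in the sub-cluster led by Fabp1. The immediate early genes summed to 404 CPM in the anterior and 563 CPM in the embryonic visceral endoderm-like cells, against 605, 711 and 737 CPM in the sub-clusters led by Fabp1, Fst and Lyz2. The 12 primitive and visceral endoderm markers summed to 9390.5 and 9049.8 CPM in the anterior and embryonic cells, against 13260.0, 10975 and 12944 CPM in the same others. The remaining sub-clusters, of 162 and 55 cells, had 438 and 468 CPM of immediate early genes with 228 and 309 CPM of Id1. The part of these sums in the target levels was not tested.

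The anterior visceral endoderm is known for secreting antagonists. The anterior visceral endoderm-like sub-cluster had more Bmp2 and less Id1 and Id2 than the sub-cluster led by Fabp1 at each stage from E5.0. Its Bmp2 was at 37.6, 65.9 and 104 CPM at E5.0, E5.25 and E5.5. Its Id2 was at 40.6, 44.0 and 64.2 CPM and its Id1 at 141, 108 and 295 CPM. In the sub-cluster led by Fabp1, Bmp2 was at 8.41, 12.2 and 13.1 CPM, Id2 at 288, 368 and 443 CPM and Id1 at 399, 465 and 502 CPM. This pair was chosen from several sub-clusters. Bmp2 and ID levels are not given here for the largest one of E5.5 (409 cells, led by Peg10, Phlda2 and Egr1). The same holds for the largest ones of E5.0, of 498, 380 and 364 cells, so the opposition is stated for the named sub-clusters only. The embryonic visceral endoderm-like cells of E5.0 had 67.9 CPM of Bmp2 and 93.6 CPM of Id1. At E5.5 the embryonic sub-cluster held 27 cells, under the minimum of 30 for a sum, and the anterior one held 352. At E5.5 Id1 was no lower in the anterior cells than in the sub-cluster led by Lyz2, which had 286 CPM. Cer1, an antagonist of BMP and NODAL and a marker used in naming the anterior cells, was at 21.6, 45.5 and 87.6 CPM in them. Nog, which encodes the antagonist noggin, was at 21.2, 12.6 and 7.01 CPM in the same cells. Neither gene was limited to the anterior cells. The embryonic visceral endoderm-like cells had 21.1 and 15.9 CPM of Nog and 19.1 and 30.995 CPM of Cer1 at E5.0 and E5.25. A sub-cluster of 498 cells led by Mixl1 had 13.95 CPM of Nog at E5.0, with 1.88 CPM of Cer1. The cells led by Fabp1 had 0.765, 0 and 2.62 CPM of Nog from E5.0 to E5.5 and no Cer1 UMI. Fst, which encodes the activin and BMP binding protein follistatin, was the other way round, with 2.16, 0 and 4.09 CPM in the anterior cells, against 57.4, 49.3 and 40.1 CPM in those led by Fabp1. The ligand gene Bmp6 was at 14.7, 11.4 and 19.8 CPM in the anterior cells, against 64.2, 83.1 and 128 CPM in those led by Fabp1. Bmper, which encodes a secreted modulator of BMP ligands, was nearer to even. It was at 9.08, 9.81 and 22.8 CPM in the anterior cells, against 14.5, 13.9 and 18.3 CPM in those led by Fabp1.

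Parietal endoderm-like cells, the migratory layer on the trophoblast wall, held the same opposition. At E5.25 a sub-cluster of 85 cells led by Robo1, Arhgap6 and Mcc had 44.9 CPM of Bmp2 (interval 32.8 to 60.1), with 13.0 CPM of Id1, 5.99 of Id3 and 0.999 of Smad6 (1 UMI). Another of 45 cells led by Maf and Msmo1 had 9.80 CPM of Bmp2 (3.60 to 21.3), with 302 CPM of Id1 (260 to 349), 58.8 of Id3 and 27.8 of Smad6. At E5.5 a sub-cluster of 188 cells led by Ccn2 and Kcnq5 had 54.9 CPM of Bmp2, 27.4 of Id1 and 2.61 of Id3, against 10.3, 494 and 157 CPM in 76 cells of the sub-cluster led by Maf. Id2 was not split in this way at E5.25, at 210 CPM in the cells led by Robo1 and 320 CPM in those led by Maf. Nog was at 99.9 CPM (81.3 to 121) in the cells led by Robo1 and 1.63 CPM (1 UMI) in those led by Maf. In the same order Bmper was at 561 and 55.5 CPM, Fst at 923 and 425 CPM and Bmp6 at 66.9 and 80.0 CPM. These values of antagonists, modulators and Bmp6 were looked up after the split was seen.

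The parietal sub-clusters also differed in other marker sums. At E5.25 the 10 parietal endoderm markers summed to 26037 CPM in the cells led by Robo1 and 12584 CPM in those led by Maf, and the 12 primitive and visceral endoderm markers to 6195 and 9953 CPM. The listed immediate early genes summed to 1782 and 1209 CPM, and median depth was 11684 and 13409 UMIs. Whether these differences had a part in the ID levels was not tested. Parietal endoderm-like cells as a whole were lower than endoderm in Bmp4, Id1, Id3, Smad6 and Bambi at E5.25 (5 of 9, beside 11.3% of all genes) and in all of these but Bmp4 at E5.5 (4 of 8, beside 11.3%). At E5.0 the lower members were Bmp4, Id3, Smad6 and Bambi (4 of 9, beside 9.78%), and at E4.75 Bmp4, Smad6 and Bambi (3 of 8, beside 6.26%).

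**Figure D5:**
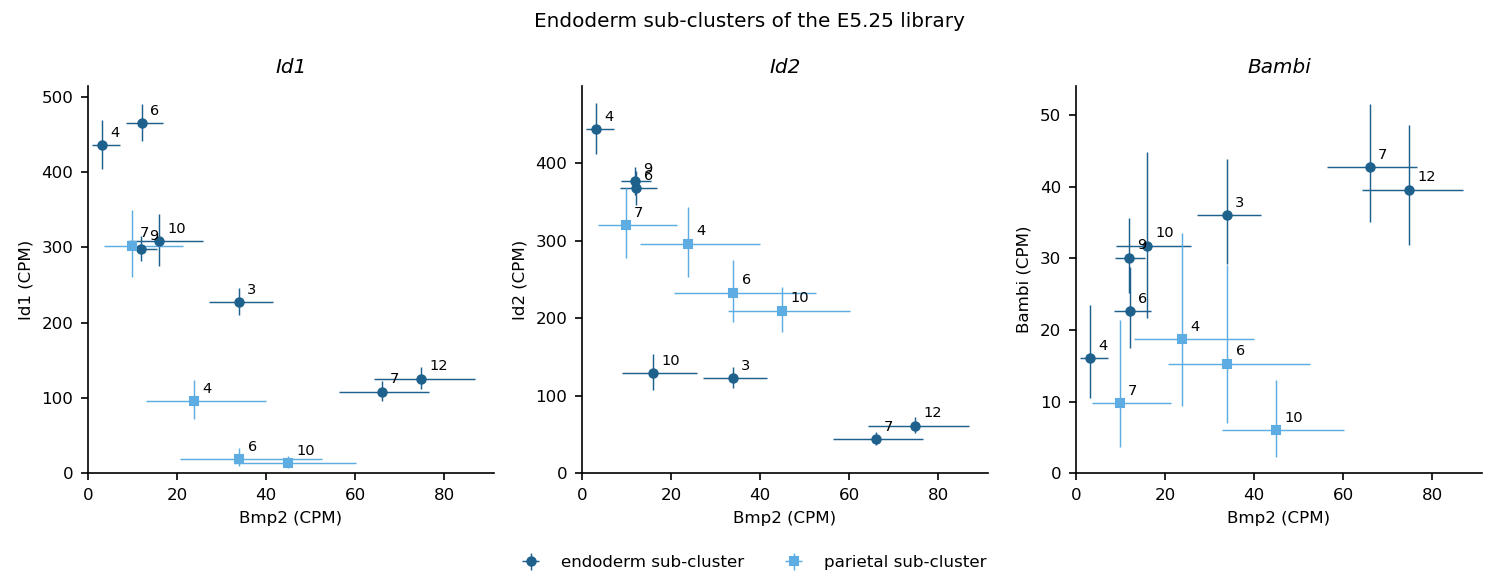
CPM of Id1, Id2 and Bambi (left to right, vertical axes) against CPM of Bmp2 (horizontal axes) in the 7 endoderm and 4 parietal sub-clusters of at least 30 cells in the E5.25 library, with exact Poisson 95% intervals as bars and the sub-cluster number beside each point. Endoderm sub-clusters 7 and 12 are the anterior and embryonic visceral endoderm-like cells, 6 is led by Fabp1, and parietal sub-clusters 10 and 7 are led by Robo1 and Maf. Id1 was at 108 and 126 CPM in endoderm sub-clusters 7 and 12 and at 13.0 CPM in parietal sub-cluster 10.

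Epiblast sub-clusters were more even. At E5.5 the sub-clusters of 1132, 911 and 310 cells had 127, 146 and 113 CPM of Id1 and 299.6, 314 and 244 CPM of Id3. Id2 was at 59.7, 68.0 and 143 CPM in them, and Bmp4 at 6.87, 6.06 and 13.0 CPM. The smallest sub-cluster was highest in Id2, and its Bmp4 interval (7.58 to 20.8 CPM) overlapped that of the sub-cluster of 1132 cells (5.32 to 8.74 CPM). It also held more of other lineages' markers: the 13 trophoblast markers summed to 670.2 CPM in it, against 164 and 172 CPM in the sub-clusters of 1132 and 911 cells, and the 12 primitive and visceral endoderm markers to 682 CPM, against 155 and 178 CPM. Its median depth was 3405.5 UMIs, against 7628 and 5731 UMIs. The part of these differences in its Id2 and Bmp4 was not tested.

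Other genes of the pathway also differed by lineage. Of 15 other genes on the ligand list, 2 were measured in endoderm over epiblast-like cells at E5.25. Bmp6 was higher (82.3 and 2.42 CPM, beside 30.4% of all genes) and Gdf3 lower (4.03 and 30.3 CPM, beside 13.2%). In trophoblast-like over epiblast-like cells 3 were measured, with Bmp1 and Bmp8b higher (beside 12.6%) and Gdf3 lower (beside 15.9%). Bmp1 encodes a protease and not a ligand. Bmp8b was at 55.3 and 1.76 CPM and Gdf3 at 0.0382 and 30.3 CPM. Of 11 measured receptor and SMAD genes, 6 were higher in endoderm than in epiblast-like cells at E5.25 (beside 30.4% of all genes), among them the SMAD gene Smad1 (137 and 26.8 CPM), and 2 were lower (beside 13.2%), Bmpr1b and Acvr2b. Smad1 in endoderm was at 27.4, 62.1, 107, 137 and 186 CPM from E4.5 to E5.5. Of 4 measured genes on the list of other reported BMP-responsive genes, all 4 were higher in endoderm than in epiblast-like cells at E5.25 (Msx2, Hes1, Tbx3 and Sp5, again beside 30.4%). Several genes on this list also respond to other signals. Msx2, a homeobox gene, was at 32.4 CPM in endoderm and 0.232 CPM in epiblast-like cells. Of 5 measured extracellular antagonists and modulators, 4 were higher in endoderm (Cer1, Fst, Fstl1 and Bmper, beside the same 30.4%). In parietal endoderm-like cells Fst was at 146, 461, 710 and 648 CPM from E4.75 to E5.5, and Nog at 3.40, 24.7, 52.8 and 63.4 CPM.

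The genes most like each member were those with the highest Pearson correlation of log2 CPM plus 10 over 24 class-by-stage sums, which share libraries and depth. Among 9297 genes they were Lipa, Fabp1 and Igsf11 for Bmp2 (0.97, 0.95 and 0.94), Sox21, Esrrb and Arglu1 for Bmp4 (0.89, 0.88 and 0.87), and Kdm2a, Nbeal1 and March6 for Bmpr1a (0.95, 0.95 and 0.93). For the targets they were Ldlrad3, Peg3 and Emb for Id1 (0.95, 0.94 and 0.93), Blvra, Wnk2 and Cpne3 for Id2 (0.88, 0.86 and 0.85) and Ttyh3, Llgl1 and Ep300 for Id3 (0.94, 0.92 and 0.91). For the inhibitors they were Abhd17b, Peg10 and Sp4 for Smad6 (0.89, 0.88 and 0.85), Tmcc3, Mmgt2 and Akap17b for Smad7 (0.90, 0.89 and 0.87) and Nr2f6, Hmgcs1 and Sik3 for Bambi (0.86, 0.84 and 0.82). Between members, the correlation was 0.78 for Bmp2 with Bmpr1a, 0.71 for Id2 with Smad6, 0.70 for Bambi with Smad6 and −0.50 for Id2 with Id3.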

How the data were processed

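Single-cell libraries of 6 stages, 1 per stage, were made with 10x Genomics 3′ chemistry, per the labels' protocols. The authors' deposited matrices hold whole UMI counts per gene and barcode, not normalized, made with Cell Ranger 7.1.0 (per the file headers). Builds named in the submitters' processing notes are GRCm38, mm10 and hg38. The members and gene lists were chosen with earlier results of these data known.

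From these counts, cells with at least 1500 genes and at most 15% mitochondrial UMIs were kept and the highest Scrublet scores removed, 0.8% per 1000 cells up to 8%. Cells of all libraries were clustered together in scanpy 1.11.5 (2000 variable genes, 30 components, 15 neighbours, Leiden resolution 1.0) without the members and the other BMP list genes, 70 names in all. Clusters were classed from fixed markers at 2-fold or more, with at least 3 markers. Limits on mixed clusters (0.45 of the best class's score by another class) and on sub-clusters (0.2 of another lineage's marker level), and the rule that lets the endoderm pair and the trophoblast pair of classes share markers, were set after seeing the clusters. Giant cell-like clusters were kept although they also carried endothelial markers. UMIs were summed per class and library in sums of at least 30 cells. Log2 ratios used CPM plus 10. The counting code was checked on simulated counts. Intervals are exact Poisson or binomial at 95%, as cells are not replicates. Processing alternatives, the last pair added after seeing the data (E4.75 as the earlier stage, mixed sub-clusters kept), are in the closing section. Every member is named, with the 3 genes most like it. Positions come from GENCODE by Ensembl ID. Promoters were matched by symbol for 5 of 9 members.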

Additional observations from a re-analysis of the deposited data

Results flagged for a closer look

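Bmp4 moved in opposite directions in 2 classes between E3.5 and E4.5. The log2 ratio of CPM plus 10 at E4.5 over E3.5 was 3.93 in trophoblast-like cells and −2.07 in epiblast-like cells. The difference between the classes was not tested, since each stage is 1 library, and the E3.5 sums hold 42 and 44 cells.

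Barcodes with under 1500 detected genes, which enter no comparison, held members above the level that 0 counts allows: from the earliest to the latest stage 2, 4, 6, 8, 9 and 9 of 9 members. At E5.5 these were 18592 barcodes, with Id2 at 327 CPM, Id3 at 147 CPM, Id1 at 139 CPM, Bmp4 at 24.9 CPM and Bmp2 at 12.3 CPM.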

How the results depend on the processing

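Of 314 counts of members recomputed under 16 alternatives, 298 were within 1.5 times the reported one. When E4.75 replaced E4.5 as the earlier stage, the epiblast counts at E5.5 were 1 higher and 0 lower and the trophoblast count 0 higher, and the log2 ratios of Bmp4 (0.092) and Id1 (−0.33) in epiblast-like cells reversed. A minimum of 30 CPM gave 0 lower in epiblast-like and 1 higher in trophoblast-like cells at E5.5 over E4.5, and 0 higher in endoderm over epiblast at E4.75. In epiblast-like cells at E5.25 over E4.75, 1 member was higher with median-of-ratios scaling (Id3), with libraries clustered alone (Id3) and with no CPM minimum (Bmp2). Clustering alone also gave 1 lower member in endoderm at E5.5 over E4.5 (Bmp4). Keeping mixed clusters or mixed sub-clusters gave 1 lower member in trophoblast-like cells at E5.5 over E4.5 (Bmp4). In trophoblast-like cells at E5.25 over E4.75, 1 member was lower (Id3) with at least 1000 genes and with libraries clustered alone. In endoderm over epiblast at E4.75, 2 members were higher with no CPM minimum and with thinned cells. The cause of these differences was not tested. Of 729 log2 ratios, 628 stayed within the counting interval. Median-of-ratios scaling shifted all log2 ratios by −0.19 to 0.26. No paired analysis was possible because each stage has 1 library, and for the same reason no replicate could be left out. Depth limits low members most at E3.5, where the trophoblast-like and epiblast-like sums hold 829725 and 792820 UMIs.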
